A study of Mus musculus with 170 samples.

Results

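The 31 sarcomere scaffold and Z-disc genes described here were taken by name from a table of transcript levels in single heart cells, and all 31 were among its 40549 gene rows. They fall into role groups: 4 scaffold genes of the A-band and M-band, 13 genes of the Z-disc and intercalated disc, 4 genes that set thin-filament length or cap its pointed end, 6 genes of assembly, kinase and turnover, and 4 LIM-only, costamere and membrane genes. Transcripts were measured by Smart-seq2, a full-length single-cell protocol, in hand-picked cells from the ventricular part of mouse hearts at embryonic day 9.5, on a C57BL/6 strain label. Control embryos, labelled wild type, were described in the study's methods as Dgcr8 loxP/loxP with 1 copy of the Rosa26 mT/mG membrane reporter and no Cre. The conditional knockout (cKO) embryos, labelled Mesp1Cre/+; Dgcr8-/-, carried the same floxed alleles and reporter plus Cre expressed from the Mesp1 locus. Mesp1 is active in early cardiovascular mesoderm, so the deletion precedes the cardiomyocyte and is not limited to it. The protein made from Dgcr8 binds RNA and, with the nuclease Drosha, frees microRNA hairpins from their primary transcripts.

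The sarcomere is the contractile unit of striated muscle. Actin thin filaments are anchored at the Z-disc by alpha-actinin and reach inward to a pointed end that is capped by tropomodulin and extended by leiomodin, while myosin thick filaments are cross-linked at the M-band. Titin spans from Z-disc to M-band and links both, and a set of chaperones, kinases and ubiquitin ligases builds the assembly and turns it over. In the mouse embryo the heart beats before it has its chambers, so many sarcomere genes are active at this stage.

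Values were at hand for 143 cells from 2 sequencing batches. Of the 74 control cells 35 came from batch 1 and 39 from batch 2, and of the 69 cKO cells 35 and 34. The labels name no embryo, so each genotype was treated as 1 sample. No difference below was therefore tested, the SDs describe the scatter across cells, and intervals cover counting error only. Ward clustering on 55 marker genes, none of them a member, gave a cardiomyocyte-like (CM-like) cluster of 93 cells in which all 15 cardiomyocyte markers stood at least 1 log2 unit above the other cells. It held 27 of 74 control cells (36.5%, exact Clopper-Pearson 95% interval 25.6 to 48.5), 19 in batch 1 and 8 in batch 2, and 66 of 69 cKO cells (95.7%, interval 87.8 to 99.1), 33 in each batch. The values are TPM, which keep no record of sequencing depth. As a substitute, the number of genes with TPM above 0 had a median of 8458 in control and 9845 in cKO CM-like cells of batch 1, and of 9704 and 7786 in batch 2, so the order of the genotypes turned between the batches. The share of TPM from mitochondrial transcripts was 6.30% in the median control and 2.95% in the median cKO CM-like cell. The genotypes also differed in sex-linked transcripts: Xist was found in 63 of 66 cKO and 0 of 27 control CM-like cells, a count of 0 that leaves room for a share of up to 11.1%. The Y-linked Ddx3y was found in 18 of 27 control and 0 of 66 cKO CM-like cells, which allows up to 4.55%. Genotype and embryo sex cannot be told apart here.

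The targeted gene was examined first. Dgcr8 had a mean log2(TPM + 1) of 2.41 ± 2.89 (SD across 27 cells) in control and 1.69 ± 2.47 (66 cells) in cKO CM-like cells. Detection, meaning TPM 1 or more, was seen in 51.9% of control cells (interval 31.9 to 71.3) and 31.8% of cKO cells (interval 20.9 to 44.4). In batch 1 the shares were 57.9% and 42.4%, and in batch 2 they were 37.5% and 21.2%. A value for the whole gene also counts transcripts that lack the deleted part, so it does not check the deletion itself.

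In CM-like cells the scaffold genes did not move as a block. Nexilin (Nexn), the cardiac leiomodin (Lmod2) and myocardin (Myocd) were higher in cKO cells by at least 1 log2 unit in each batch, and 2 small Z-disc genes, Myoz1 and Tcap, were lower by as much. Titin (Ttn) and the M-band gene Myom1 were on the higher side in both batches without reaching 1 log2 unit in each, and 3 of the 4 LIM-only, costamere and membrane genes changed sign between the batches. A difference is the cKO mean of log2(TPM + 1) less the control mean. Pooled means count all cells alike, with 19 control and 33 cKO cells in batch 1 and 8 and 33 in batch 2. A pooled difference can therefore lie outside its batch values, as it did for Actn2, Mybpc3 and Csrp3. Differences were taken for the 15061 genes with TPM above 0 in more than 10 CM-like cells of both genotypes together. Of the 31 members, 29 passed this filter. Myot, which encodes the Z-disc protein myotilin, and Xirp2, an actin-binding intercalated disc gene, were listed at 0 in all 93 CM-like cells, which allows a share of detecting cells of up to 11.1% in control and 4.55% in cKO.

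A member was counted as higher or lower when its difference reached 1 log2 unit in the same direction in each batch. Nexn, Lmod2 and Myocd were higher by this rule, 3 of 29 members (10.3%), beside 2.89% of all genes tested. Myoz1 and Tcap were lower, 2 of 29 (6.90%), beside 2.65% of all genes. The size of this background depends on its low genes. Narrowed to the 6559 genes that a majority of cells detected in one genotype or the other, it was 5.73% higher and 5.35% lower. The member shares given here were not narrowed in the same way. With any size of difference counted, 15 members (51.7%) were higher in both batches beside 31% of all genes, 7 (24.1%) were lower in both beside 24.8%, and 7 had opposite signs in the 2 batches. The median difference of the 29 members was 0.18 (0.34 in batch 1 and 0.31 in batch 2), and over all genes tested it was 0.06 (0.17 and -0.17). Differences of most members were smaller than the scatter between cells. The pooled difference exceeded the SD across control cells for 3 members only, Nexn, Nebl and Lmod2, at 1.18, 1.12 and 1.24 SD.

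**Figure D1:**
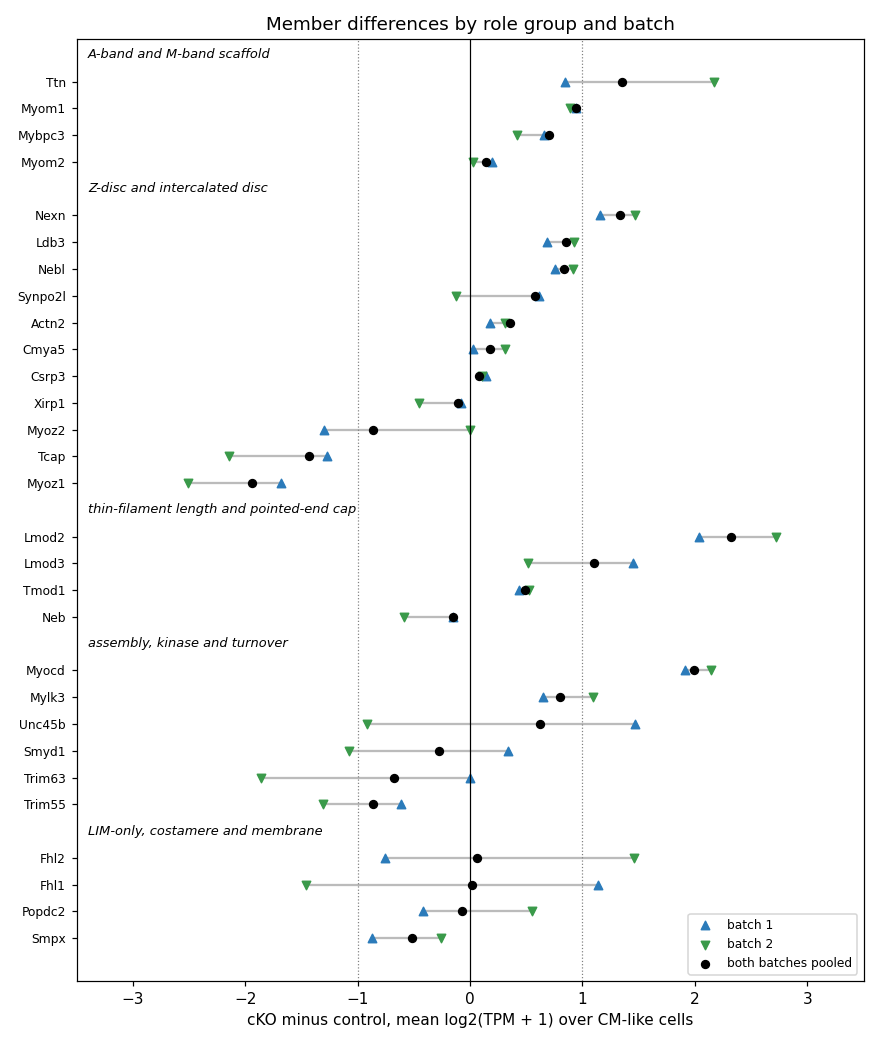
The cKO minus control difference in mean log2(TPM + 1) over CM-like cells is plotted for the 29 tested members by role group, with a circle for both batches pooled and triangles for batch 1 (upward) and batch 2 (downward). Dotted lines stand at 1 log2 unit in either direction. Nexn, Lmod2 and Myocd lie right of the upper line in both batches, Myoz1 and Tcap left of the lower one, and Unc45b, Fhl1 and Fhl2 span 0 widely.

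The A-band and M-band scaffold genes were on the higher side in cKO cells of both batches, 4 of 4, with a median difference of 0.82 (0.75 in batch 1 and 0.66 in batch 2). Ttn encodes titin, the elastic protein that runs from Z-disc to M-band (chromosome 2, 76703980 to 76982557, GRCm38). In batch 1 its log2(TPM + 1) ran from 2.83 over a median of 8.85 to 10.74 in control cells and from 2.79 over 9.44 to 11.13 in cKO cells. In batch 2 it ran from 6.73 over 7.47 to 9.88 in control cells and from 6.83 over 9.78 to 12.72 in cKO cells. The ranges overlapped in both batches, and 24 of 33 cKO cells in batch 1 and 32 of 33 in batch 2 lay above the control median of their batch. The mean was 8.23 ± 1.58 in control and 9.58 ± 1.47 in cKO cells, a difference of 1.35 pooled, 0.84 in batch 1 and 2.17 in batch 2. In batch 2, 15 of 33 cKO cells stood above the highest of the 8 control cells.

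Myom1, which encodes the M-band cross-linker myomesin, differed by 0.95 (0.94 and 0.89 by batch), and 18 of 66 cKO cells exceeded the highest control cell. Mybpc3, the cardiac myosin-binding protein C of the A-band, differed by 0.70 (0.65 and 0.42). Myom2, the myomesin relative known as M-protein, was near the floor in both genotypes. Detecting cells numbered 1 of 27 in control and 10 of 66 in cKO, with medians of 0 in control and cKO cells of batch 1 and of 0.16 and 0 in batch 2. Its highest cells reached 1.31 and 2.41 in batch 1 and 0.98 and 3.33 in batch 2. The difference of Myom2 was 0.14, and it carries little weight in the count of 4.

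The Z-disc and intercalated disc genes split. Of the 11 tested, 6 were higher in both batches (Nexn, Ldb3, Nebl, Actn2, Cmya5 and Csrp3), 4 were lower in both (Myoz1, Tcap, Myoz2 and Xirp1), and Synpo2l changed sign. The median was 0.18 and the mean -0.01, so they differ in sign. Nexn encodes nexilin, an actin-binding protein that stabilizes the Z-disc (chromosome 3, 152236982 to 152266350). Its values ran from 4.35 over a median of 6.77 to 8.60 in control and from 5.73 over 8.09 to 9.46 in cKO cells of batch 1, and from 5.62 over 6.60 to 9.65 and from 5.61 over 8.40 to 11.28 in batch 2. The ranges overlapped, yet 30 of 33 cKO cells lay above the control median in each batch. The mean was 6.82 ± 1.13 in control and 8.15 ± 1.09 in cKO cells, a difference of 1.33 (1.16 and 1.47 by batch).

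Nebl and Ldb3 moved less than Nexn. Nebl encodes nebulette, the cardiac nebulin-like protein of the Z-disc, and had the narrowest scatter of the tested members expressed in all cells, an SD of 0.75 over control and 0.80 over cKO cells. It differed by 0.84 (0.76 and 0.92), and 23 of 66 cKO cells stood above the highest control cell. Ldb3 encodes Cypher, a PDZ-LIM protein that binds alpha-actinin. Its difference was 0.85 (0.69 and 0.93), although the median TPM was 142 in control and 136 in cKO cells. Low cells were rarer in cKO, with detection in 24 of 27 control and 65 of 66 cKO cells. Actn2, which encodes the alpha-actinin that cross-links thin filaments at the Z-disc, differed by 0.36 pooled, above both of its batch values (0.18 and 0.31). Csrp3, which encodes the muscle LIM protein, was the most abundant member with a median TPM of 1931 over control cells and 2126 over cKO cells, and differed by 0.08.

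For Myoz1 and Tcap, the lower means of cKO cells went with fewer cells that held the transcript. Myoz1 encodes calsarcin-2, a calcineurin-binding Z-disc protein best known from fast skeletal muscle (chromosome 14, 20649102 to 20656540). Its values ran from 0 over a median of 0.29 to 7.03 in control and from 0 over 0 to 7.33 in cKO cells of batch 1, and from 0 over 4.36 to 6.55 and from 0 over 0 to 6.67 in batch 2. Cells with high levels were present in both genotypes. Myoz1 was detected in 13 of 27 control cells (48.1%, interval 28.7 to 68.1) and 11 of 66 cKO cells (16.7%, interval 8.62 to 27.9), and the intervals do not overlap when the batches are pooled. Within the batches they overlap, at 20.3 to 66.5 and 3.40 to 28.2 in batch 1 and at 24.5 to 91.5 and 8.98 to 38.9 in batch 2. The means were 2.73 ± 2.92 and 0.79 ± 1.86, a difference of -1.94 (-1.68 and -2.51 by batch). Among detecting cells, which are chosen by the measured level, the median TPM was 43.6 in control and 30.6 in cKO. Their mean log2 values differed by -1.30, with SDs of 0.98 across 13 control and 2.41 across 11 cKO cells. No comparison is drawn from these values.

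Tcap encodes telethonin, which joins the ends of 2 titin molecules at the Z-disc (chromosome 11, 98383811 to 98384953). In batch 1 it ran from 0 over a median of 6.52 to 8.65 in control and from 0 over 1.24 to 8.82 in cKO cells. In batch 2 it ran from 0 over 7.82 to 8.71 in control and from 0 over 2.43 to 11.78 in cKO cells. Both genotypes thus held cells without Tcap and cells with much of it, and the highest cell of all was a cKO cell. It was detected in 20 of 27 control cells (74.1%, interval 53.7 to 88.9) and 37 of 66 cKO cells (56.1%, interval 43.3 to 68.3), intervals that overlap. The difference of mean log2 values was -1.43 (-1.27 and -2.14), from 5.09 ± 3.53 to 3.66 ± 3.76. The mean TPM went the other way, 146 in control and 161 in cKO cells, and the log2 ratio of the mean TPM was 0.14. Among detecting cells the median TPM was 188 and 162. The direction of Tcap therefore depends on whether cells are averaged on the log or on the linear scale.

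Myoz2, the cardiac calsarcin-1, differed by -0.87, all of it in batch 1 (-1.30, against -0.0032 in batch 2), with 9 of 27 control cells and 13 of 66 cKO cells detecting it. The remaining Z-disc members differed by less than 0.6 in either direction when pooled. Synpo2l, an actin-bundling partner of alpha-actinin, differed by 0.58 (0.61 and -0.12), Xirp1 (Xin) of the intercalated disc by -0.11, and Cmya5 (myospryn), detected in 2 of 27 and 8 of 66 cells, by 0.18.

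**Figure D2:**
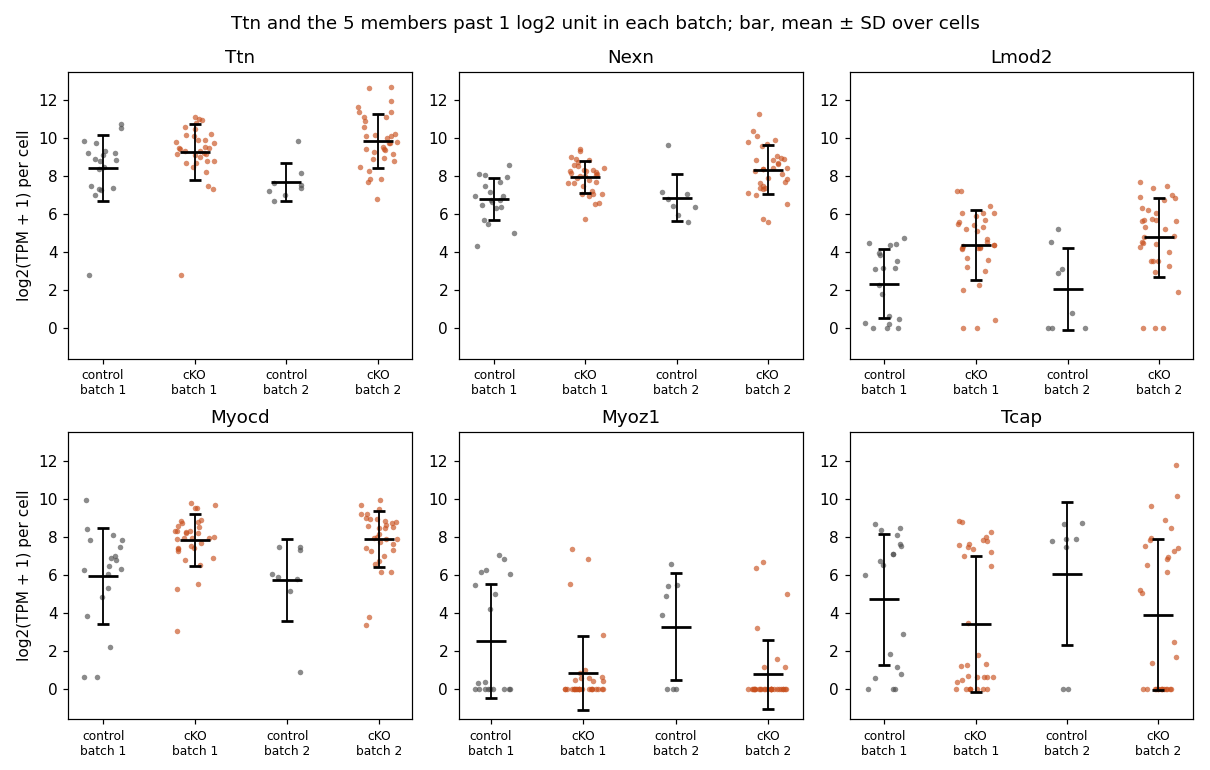
Each point is 1 CM-like cell, with log2(TPM + 1) on the vertical axis and genotype and batch on the horizontal axis, for Ttn and the 5 members past 1 log2 unit in each batch. Bars are the mean ± SD across cells. For Ttn, Nexn and Myocd the bulk of the cKO cells lies higher, Lmod2 has fewer cells near 0 in cKO, and Myoz1 and Tcap have both cells near 0 and cells with high values in every group.

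Among the thin-filament genes, Lmod2 showed the largest difference of all members. It encodes the cardiac leiomodin, which lengthens thin filaments at the pointed end (chromosome 6, 24597771 to 24605414). In batch 1 it ran from 0 over a median of 3.14 to 4.76 in control and from 0 over 4.39 to 7.22 in cKO cells. In batch 2 it ran from 0 over 1.85 to 5.21 in control and from 0 over 5.24 to 7.70 in cKO cells. The upper part of the cKO distribution lay beyond the controls, with 14 of 33 cKO cells above the highest control cell of batch 1 and 17 of 33 above that of batch 2. The mean was 2.27 ± 1.88 in control and 4.59 ± 1.96 in cKO cells, a difference of 2.32 (2.03 and 2.72 by batch). Lmod2 was detected in 59.3% of control cells (interval 38.8 to 77.6) and 90.9% of cKO cells (interval 81.3 to 96.6), and among detecting cells the median TPM was 12.2 and 35.3.

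Lmod3, the leiomodin of striated muscle best known for skeletal nemaline myopathy, also stood higher, by 1.10 (1.45 and 0.52), with 8 of 27 control cells and 32 of 66 cKO cells detecting it. Tmod1, which encodes the tropomodulin that caps the pointed end and limits filament growth, differed by 0.49 (0.44 and 0.53). Neb encodes nebulin, the thin-filament ruler of skeletal muscle, and was the only member of this group that was lower. It ran from 0 over 0 to 1.42 in control and from 0 over 0 to 1.37 in cKO cells of batch 1, and from 0 over 1.24 to 3.96 and from 0 over 0 to 5.88 in batch 2. Neb was close to the floor in most cells, and its difference was -0.15. The 4 genes had a median difference of 0.80 (0.95 and 0.52 by batch).

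Of the 6 genes of assembly, kinase and turnover, Myocd alone passed 1 log2 unit in each batch. Myocd encodes myocardin, the coactivator of serum response factor that drives cardiac and smooth muscle genes (chromosome 11, 65173608 to 65269989). Its values ran from 0.59 over a median of 6.47 to 9.92 in control and from 3.04 over 7.97 to 9.78 in cKO cells of batch 1. In batch 2 they ran from 0.87 over 5.96 to 7.45 in control and from 3.37 over 8.13 to 9.92 in cKO cells, where 23 of 33 cKO cells exceeded the highest control cell. Cells below detection were seen in control only, 3 of 27, while all 66 cKO cells detected Myocd. The mean was 5.86 ± 2.39 in control and 7.85 ± 1.40 in cKO cells, a difference of 1.99 (1.91 and 2.15). Mylk3, the cardiac myosin light chain kinase, differed by 0.80 (0.65 and 1.09).

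The ubiquitin ligases of the Trim family, which associate with titin and take part in muscle protein turnover, had the lowest differences of this group. Trim55 (MURF2) ran from 1.25 over a median of 9.07 to 11.07 in control and from 1.24 over 8.34 to 10.64 in cKO cells of batch 1, and from 5.89 over 9.27 to 10.04 and from 0.35 over 7.93 to 10.01 in batch 2. The ranges overlapped almost wholly, but 16 of 66 cKO cells lay above the pooled control median and none above the highest control cell. The difference of Trim55 was -0.86 (-0.61 and -1.31). Trim63 (MURF1) differed by -0.68, all of it in batch 2 (0.0016 and -1.86), with 19 of 27 control cells and 31 of 66 cKO cells detecting it. The 2 assembly factors changed sign between the batches. Unc45b, the myosin chaperone, differed by 1.47 in batch 1 and -0.92 in batch 2, and Smyd1, a methyltransferase needed for myofibril assembly, by 0.34 and -1.08. The median of the 6 genes was 0.17 pooled, 0.49 in batch 1 and -0.997 in batch 2.

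The LIM-only, costamere and membrane genes had a median difference of -0.03, from -0.59 in batch 1 to 0.15 in batch 2. Fhl2, a LIM-only protein that binds titin, ran from 0.58 over a median of 6.46 to 9.04 in control and from 0 over 5.93 to 9.06 in cKO cells of batch 1. In batch 2 it ran from 0 over 5.21 to 7.09 in control and from 0 over 7.15 to 9.51 in cKO cells. The order of the genotypes turned, with differences of -0.76 and 1.46 and a pooled value of 0.07. Fhl1, its X-linked relative, turned the opposite way, with 1.14 and -1.46. Popdc2, a cAMP-binding membrane protein, differed by -0.42 and 0.56.

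Smpx encodes a small X-linked protein of the costamere, and was the only gene of the group that kept its sign. It ran from 5.45 over 9.35 to 11.05 in control and from 1.81 over 8.54 to 10.57 in cKO cells of batch 1, and from 7.95 over 9.29 to 10.19 and from 5.22 over 8.79 to 10.41 in batch 2. The ranges overlapped widely, and 19 of 66 cKO cells exceeded the pooled control median. The difference was -0.51 (-0.88 and -0.25). Smpx and Fhl1 lie on chromosome X, and the part of embryo sex in their values was not tested.

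**Figure D3:**
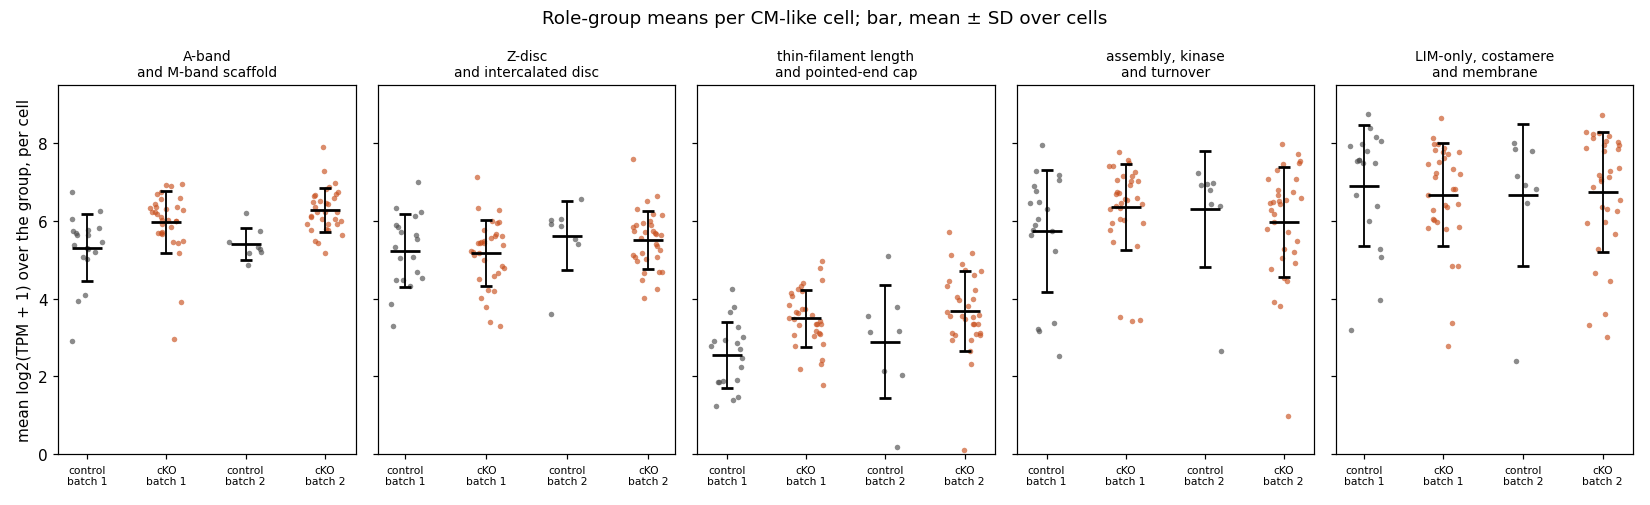
Each point is 1 CM-like cell, with the mean log2(TPM + 1) over the tested members of a role group on the vertical axis and genotype and batch on the horizontal axis. Bars are the mean ± SD across cells. The A-band and M-band and the thin-filament means are higher in cKO in both batches, by 0.79 and 0.94 pooled. Cells of the genotypes overlap in every group. In batch 2, 18, 2, 3, 6 and 8 of 33 cKO cells exceed the highest control cell, from the left to the right group.

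Taken per cell, the members differed little between the genotypes in mean log2 level and in number detected. The mean over the 29 tested members was 5.30 ± 0.92 in control and 5.57 ± 0.72 in cKO cells, a difference of 0.27 (0.29 in batch 1 and 0.13 in batch 2) that was smaller than either SD. A control cell detected 22.5 ± 3.2 of the 31 members and a cKO cell 22.3 ± 2.6. The members took 0.691% ± 0.241 of the TPM of a control cell and 0.898% ± 0.370 of a cKO cell. This share was 0.706% ± 0.269 and 0.824% ± 0.290 in batch 1, where 2 of 33 cKO cells exceeded the highest control cell. It was 0.654% ± 0.165 and 0.972% ± 0.428 in batch 2, where 12 of 33 did. The share of detecting cells was higher in cKO for 11 members, lower for 11 and equal for 7, and those 7 were detected in every CM-like cell. The same count was not made over all genes tested, so this split is not read as a trait of the members. Across cells, the member mean and the number of detected genes had Pearson's r of 0.67 in 19 control and 0.52 in 33 cKO cells of batch 1, with Spearman's rho of 0.72 and 0.49. In batch 2 r was 0.88 in 8 control and 0.54 in 33 cKO cells and rho was -0.24 and 0.29, so r and rho had opposite signs in those 8 control cells, 1 of which had only 3805 detected genes. Both measures come from the same libraries and share their depth.

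Where the number of detected genes was held to 8000 or more, which left 13 and 7 control and 30 and 12 cKO cells in batches 1 and 2, the median difference of the members was -0.05. The A-band and M-band median was then 0.45 and the thin-filament median 0.42, and Actn2, Ldb3 and Tmod1 turned to the lower side. Lmod2, Myocd, Nexn, Ttn, Myoz1 and Myoz2 were among the 11 of 29 members that kept their direction in every alternative that was computed. The others were Lmod3, Mybpc3, Mylk3, Myom1 and Nebl.

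Which members varied together from cell to cell was examined for selected pairs of the genes above, as a description across cells that share libraries. More pairs were computed than are given here. Ttn and Nexn had Pearson's r of 0.26 in 19 control and 0.51 in 33 cKO cells of batch 1, and 0.95 in 8 control and 0.73 in 33 cKO cells of batch 2, with Spearman's rho of 0.29, 0.48, 0.83 and 0.75. Myocd had an r with Ttn of 0.04 in control and -0.11 in cKO cells of batch 1, and of -0.75 and -0.38 in batch 2. The matching rho was -0.19, -0.07, -0.10 and -0.31, so r and rho were far apart in the 8 control cells of batch 2. The r of Tcap and Myoz1 was 0.08 in control and 0.17 in cKO cells of batch 1, and 0.67 (8 cells) and 0.23 in batch 2, with rho of 0.09, 0.02, 0.37 and 0.23. Among the members called higher, Myocd and Nexn had r of -0.21 in control and -0.29 in cKO cells of batch 1. In batch 2 it was -0.75 and -0.16. The matching rho was -0.34, -0.19, 0.02 and -0.24. In the same order, Myocd and Lmod2 had r of -0.05, -0.09, 0.59 and 0.33, with rho of -0.09, 0.02, 0.78 and -0.03. Lmod2 and Nexn had r of -0.08, 0.38, -0.25 and 0.37, with rho of -0.10, 0.46, -0.05 and 0.34.

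TPM divides by transcript length, so an order of members by level can be described. Whether long and short transcripts were recovered alike is not known here. In control CM-like cells the order by median TPM was led by Csrp3 (1931), Smpx (649), Trim55 (536), Nebl (434), Ttn (331) and Actn2 (319). In cKO cells it was Csrp3 (2126), Nebl (867), Ttn (733), Smpx (432), Mybpc3 (377) and Actn2 (371). Nebl and Ttn thus stood above Smpx and Trim55 in cKO and below them in control. Nebl and Ttn are also the longer transcripts, at 8079 and 106824 bases against 1087 for Smpx and 2595 for Trim55. Cells of neighbouring genes in these orders overlapped widely.

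The differences also ran with transcript length. Lengths were found for 14292 of the 15061 tested genes (94.9%), taking the longest transcript per gene in GENCODE M21, a protein-coding one where annotated. The genes were divided by length into 5 classes of equal size. From the shortest to the longest class the median difference was -0.08, 0.03, 0.07, 0.09 and 0.17. Among the members the medians over the same classes were -0.87, 0.07, 0.19, 0.66 and 0.84. The shortest class held 5 members, Myoz1, Myoz2, Tcap, Csrp3 and Smpx, and the longest held 9. Of those 9, Ttn, Myom1, Nebl, Ldb3 and Myocd were on the higher side, as were Myom2 and Cmya5 near the floor, while Neb and Xirp1 were on the lower side at -0.15 and -0.11. Lmod2 has 1976 bases and Nexn 2564, which places them between these ends. After subtracting the median of all genes in the same class, the member median was 0.16 and the A-band and M-band median 0.69. The part of transcript length in the differences was not tested further.

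**Figure D4:**
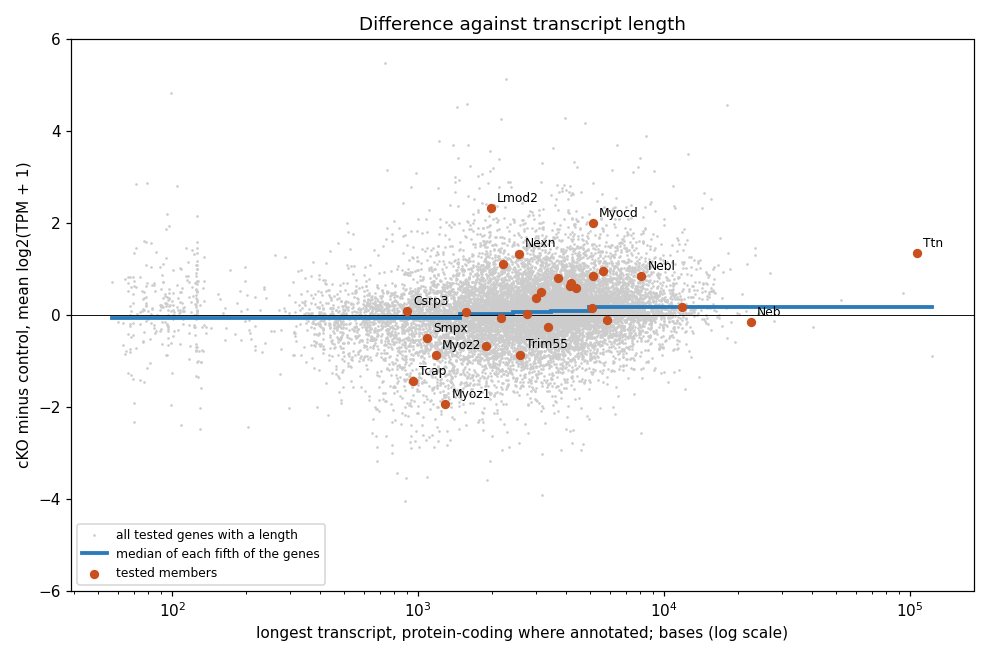
The cKO minus control difference in mean log2(TPM + 1) over CM-like cells is plotted against transcript length in bases (log scale) for 14292 tested genes (grey) and the 29 tested members (orange). Blue lines are the median of all genes in each of 5 length classes, from -0.08 at the shortest to 0.17 at the longest. Myoz1, Tcap, Myoz2 and Smpx sit low at the short end, while Lmod2 and Nexn are short or middle-length and high.

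The members differ in how far they mark the cardiomyocyte. Because their own values follow the cell classes, a cluster against the rest is given as a description only. In 22 endothelial-like control cells, Trim55 had a mean log2(TPM + 1) of 0.78 against 8.57 in 27 CM-like control cells, and Nebl had 1.52 against 8.77. The 5 erythroid-like control cells held more, with Trim55 at 3.58 ± 4.90 (SD across cells) and Nebl at 6.09 ± 2.95. Csrp3 was at 6.66 ± 4.54 and Fhl1 at 6.05 ± 0.80 in them. Whether these are mixed cells was not tested. Csrp3, the most abundant member, was still at 3.30 in endothelial-like cells and detected in 19 of 22. Fhl1 stood at 6.51 in the 13 control cells of an unnamed cluster led by Upk3b and Tcf21, against 5.60 in CM-like cells. Fhl2 stood at 3.83 in endothelial-like cells, against 5.32. Neb was higher outside the CM-like cluster, at 2.12 in the Upk3b-led cells and 1.48 in endothelial-like cells against 0.57.

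**Figure D5:**
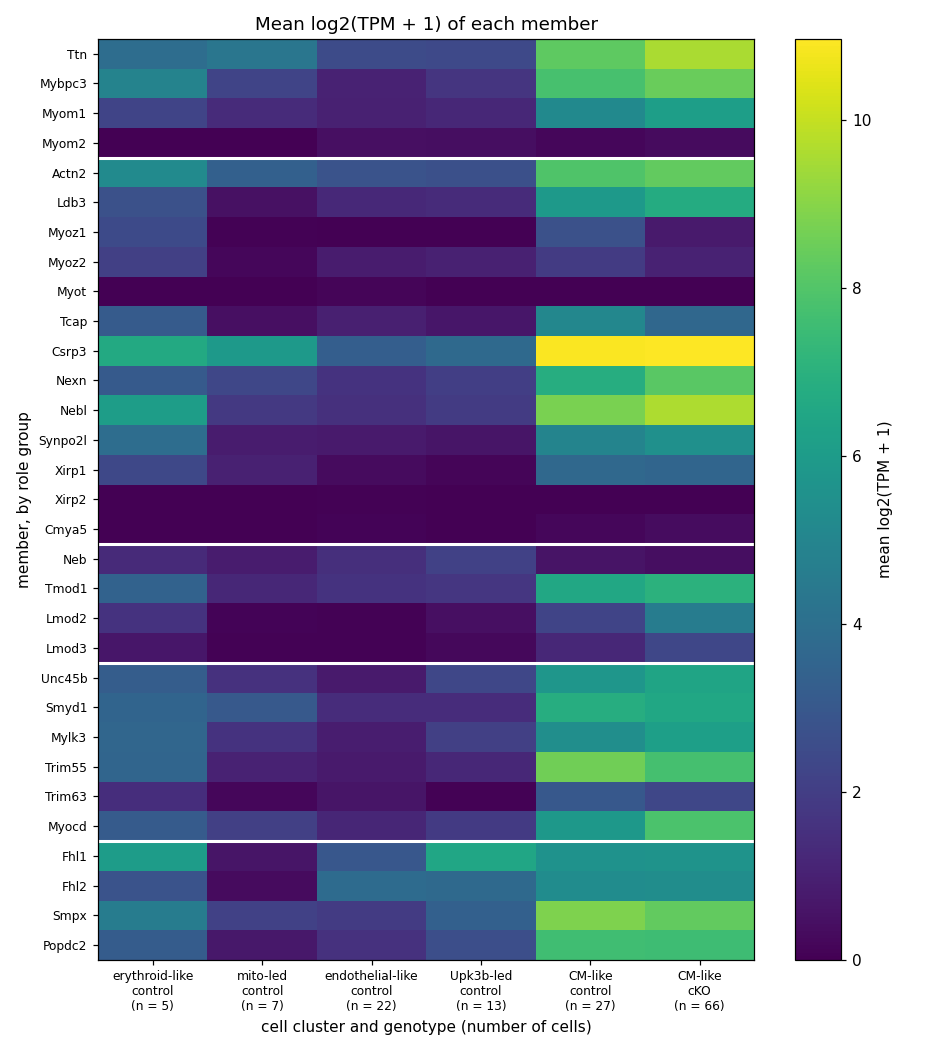
Colour gives the mean log2(TPM + 1) of each of the 31 members, by role group (white lines), in the 5 clusters of control cells and in cKO CM-like cells, with the number of cells under each column. Most members are brightest in the 2 CM-like columns, Fhl1 is as bright in the Upk3b-led cells, and Myot, Xirp2, Cmya5 and Myom2 are dark throughout.

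Markers of other cell types were read in the CM-like cells beside these results. The summed TPM of 13 endothelial markers ran from 1.82 to 229 in control and from 2.76 to 439 in cKO cells, with 2 of 13 detected in most cells of either genotype. Its median was 6.92 in control and 53.1 in cKO cells of batch 1, and 60.2 and 33.7 in batch 2. The 14 mesenchymal markers had medians of 1.34 and 2.30 in batch 1 and of 11.7 and 9.18 in batch 2, with none detected in most cells, and Lum and Thy1 were at 0 in all CM-like cells. The medians of the 6 epicardial markers were 4.46 and 61.7 in batch 1 and 40.8 and 28.9 in batch 2, and those of the 7 erythroid markers 0.776 and 2.42, and 44.3 and 18.6. In each of the 4 classes cKO cells thus had the higher median in batch 1 and control cells in batch 2. Of 6 skeletal muscle regulators, Myf5, Myog, Myf6 and Pax7 were at 0 in every CM-like cell. Smooth muscle genes, which embryonic cardiomyocytes also express, were higher in cKO cells too. Their summed TPM ran from 508 over a median of 3107 to 6504 in control and from 875 over 8584 to 19552 in cKO cells. Of the 5 tested smooth muscle genes, Acta2, Tagln, Cnn1 and Cald1 were higher by at least 1 log2 unit in each batch (80%, beside 2.89% of all genes). The median difference of the 5 was 2.02. The smooth muscle list was chosen with earlier results of these data known, so its share is a description only. The part of Myocd in these levels was not tested.

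A wider list of 54 other sarcomere scaffold genes, also chosen with earlier results of these data known, was read in the same cells. Of these, 52 were in the table and 41 passed the filter. Their median difference was 0.47 (0.69 in batch 1 and 0.23 in batch 2). Of the 41, 24 (58.5%) were higher in both batches, beside 31% of all genes tested. Lower in both were 5 (12.2%), beside 24.8%, and 12 were of mixed sign. Past 1 log2 unit in each batch, Ankrd1 and Ablim1 were higher (4.88%, beside 2.89% of all genes and 5.73% of the 6559 more widely detected ones). No gene was lower by as much, beside 2.65% of all genes. Ankrd1 encodes a stress-responsive ankyrin-repeat protein that binds titin, and its mean went from 6.91 ± 2.43 in control to 10.09 ± 1.31 in cKO cells, a difference of 3.18 (2.51 and 4.28). Ablim1, an actin-binding LIM protein, differed by 2.07 (2.20 and 1.48), and Speg, a kinase of the junctional membrane, by 1.53 (2.15 and 0.41). The lowest were Klhl41, a Kelch protein that stabilizes nebulin, at -1.37 (-0.96 and -2.27), Trim54 (MURF3) at -1.23 (-0.86 and -2.40), and Popdc3, a relative of Popdc2, at -0.98 (-0.99 and -1.38). With Trim55 and Trim63 this places all 3 MURF ligases on the lower side when pooled, although Trim63 turned positive as the ratio of mean TPM and with clusters of the most variable genes, and Trim55 did with 4 clusters. The 13 thin and thick filament proteins themselves, 11 of which served as cardiomyocyte markers, had a median of 0.24 and a mean of -0.28. Among them Tnni3, Myl2 and Myl3 were lower past 1 log2 unit in each batch (23.1%, beside 2.65% of all genes).

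Promoter sequences were read to see what these genes hold in common upstream. RefSeq entries on GRCm38.p6 were found for 21 of the 31 members, 30 promoters in all, and the 250 bases before each start site were searched on both strands. The motifs were the CArG box bound by serum response factor, the site bound by MEF2 factors, CATTCC (the MCAT element bound by TEAD factors), CANNTG (the E-box), GATAA (the core bound by GATA factors) and TATAAA, and matches of different motifs could overlap. A CArG box was in 7 of the 30 member promoters (23.3%) and 1.47% of all 32851 promoters, and a MEF2 site in 7 of 30 (23.3%) and 2.92%. Promoters of 1 gene can overlap, so the 30 are not independent. CATTCC was in 16.7% against 12.6%, CANNTG in 73.3% against 66.2%, GATAA in 33.3% against 22.6% and TATAAA in 13.3% against 12.4%. Members with a CArG box were Fhl1, Fhl2, Ldb3, Myom1 and Nebl, and those with a MEF2 site were Fhl2, Mybpc3, Myoz2, Synpo2l, Ttn and Xirp2. They include genes that were higher, lower and of mixed sign. The 250 bases up to the start site are shown for the 2 members with the largest and the 2 with the smallest differences among those with a single promoter entry. Capitals mark a MEF2 site in Ttn and Myoz2 and the MCAT element, read on the opposite strand, in Trim63.
Lmod2, chr6:24597521-24597770, plus strand: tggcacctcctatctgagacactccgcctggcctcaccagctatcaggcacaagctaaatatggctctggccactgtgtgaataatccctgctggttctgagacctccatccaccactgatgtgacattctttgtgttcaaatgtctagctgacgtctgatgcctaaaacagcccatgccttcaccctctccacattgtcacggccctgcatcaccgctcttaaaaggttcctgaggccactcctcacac
Ttn, chr2:76982548-76982797, minus strand: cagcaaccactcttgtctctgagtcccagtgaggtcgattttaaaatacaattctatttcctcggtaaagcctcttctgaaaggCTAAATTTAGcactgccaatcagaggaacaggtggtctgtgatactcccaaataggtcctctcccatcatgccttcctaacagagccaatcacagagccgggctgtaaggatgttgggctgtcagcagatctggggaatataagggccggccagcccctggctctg
Trim63, chr4:134314870-134315119, plus strand: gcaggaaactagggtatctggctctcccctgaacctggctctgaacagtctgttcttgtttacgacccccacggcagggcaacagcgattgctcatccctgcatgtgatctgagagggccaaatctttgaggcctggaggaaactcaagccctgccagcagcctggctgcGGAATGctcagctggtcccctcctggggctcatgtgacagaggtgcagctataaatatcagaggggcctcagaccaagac
Myoz2, chr3:123034988-123035237, minus strand: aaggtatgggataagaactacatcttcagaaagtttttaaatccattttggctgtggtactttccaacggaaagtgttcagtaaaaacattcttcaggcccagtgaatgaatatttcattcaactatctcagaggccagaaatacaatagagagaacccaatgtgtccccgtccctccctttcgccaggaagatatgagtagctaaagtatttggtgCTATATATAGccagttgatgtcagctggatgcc

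The MEF2 sites begin 166 bases before the start of Ttn and 33 bases before that of Myoz2, genes that differed by 1.35 and -0.87. The MCAT element of Trim63 begins 80 bases before its start. The shown window of Lmod2 held none of the CArG box, MEF2 and CATTCC letters and 1 E-box. A match is a description of letters, and a window without one says nothing about the factor.

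Some members share exons with other annotated genes, and the library did not mark strand, so reads of such pairs cannot be told apart. In GENCODE M21 the opposite-strand partners are Gm13938 for Ttn, Myl12a for Myom1, Tstd2 for Tmod1, Gm13522 for Neb, Slfn5os and Unc45bos for Unc45b, Gm13601 for Xirp2, and A630019I02Rik and Gm4814 for Cmya5. Nexn overlaps Gm43185 and Popdc2 overlaps Gm21987 on the same strand. Lmod2, Myocd, Myoz1 and Tcap have no such partner.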

How the data were processed

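The values deposited are TPM per gene (abundance per transcript length, scaled to the same total in each cell), which the authors estimated with Salmon against mm10 with reporter sequences added. The Salmon version and annotation release are not given in the sources used here. The authors kept cells above a mapping-rate minimum and left out cells whose reporter contradicted their genotype. Column sums ran from 996133 to 999999, so depth is unknown, and duplicate reads remain. Of 170 labelled samples, 143 have a column, and 27 were not analysed here. All 143 cells were kept, and doublets were not called because cells were picked by hand.

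Values were log2(TPM + 1), and the pseudocount of 1 understates changes of low genes. Cells were clustered by Ward linkage on z-scored markers (15 cardiomyocyte, 13 endothelial, 14 mesenchymal, 6 epicardial, 7 erythroid) into 5 clusters, rebuilt here and not the study's annotation. Genes with TPM above 0 in more than 10 CM-like cells were compared, and detection means TPM of at least 1. The labels name no embryo, so no test was run, cells not being replicates. The study ranked cells against each other, which was not done here. A gene was called when its difference reached 1 log2 unit in each of the 2 batches. The calling code was checked on simulated data. Members and lists were chosen with earlier results of these data known. All members are named. Those with the largest and smallest difference of each role group, and those called, are given in full, and the 3 highest and 3 lowest of the wider list by the same ranking. Alternatives changed the pseudocount (0.1, 10), averaging, clusters (4, 6, or the 1000 most variable genes), detected-gene limits, rescaling and filters. Python 3.11.15, numpy 2.4.6, scipy 1.17.1, pandas 2.3.3 and matplotlib 3.10.9 were used.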

Additional observations from a re-analysis of the deposited data

Results flagged for a closer look

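An unnamed cluster of 10 cells, led by mitochondrial transcripts, held 7 control and 3 cKO cells and was left out of the CM-like comparison. The mean log2(TPM + 1) over the tested members was 3.15 in the 3 cKO cells (2.17, 3.10 and 4.17), above the highest of the 7 control cells (2.12), whose mean was 1.38. Mitochondrial transcripts took 61.4%, 18.6% and 12.96% of the TPM in the 3 cKO cells and a median of 53.97% in the control cells. No cell type was established for this cluster, so its control and cKO cells may be of different types. The parts of cell type and of the mitochondrial share in this difference were not tested.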

How the results depend on the processing

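Of 346 member differences under other settings, 311 kept their direction, as did 105 of 116 under those chosen after seeing the data (each batch alone, correction for transcript length, and the control cell with the fewest detected genes left out). Group medians kept theirs in 75 of 84 and 22 of 24. The 346 and the 84 include the setting with 6 clusters, which held the same CM-like cells as the reported 5. Its values could not differ and say nothing on stability. Tcap reversed to 0.14 as the log2 ratio of mean TPM, which weights high cells. The count of members lower by 1 in each batch, 2 as reported, was 0 with a pseudocount of 10 (beside 0.611% of all genes) and 1 as the ratio of mean TPM (2.04%), with 4 clusters (0.971%), with clusters of the most variable genes (3.08%) and with detection in most cells of either genotype (5.35%). The count lower in each batch, 7 as reported, was 4 as the ratio (20.1%), 3 with 4 clusters (16.9%), 11 in cells with 8000 or more detected genes (30.8%) and 4 with the stricter filter (31.4%). With 4 clusters, where the mitochondria-led cells joined the CM-like ones (34 control cells), 10 members were higher by 1, beside 6.11% of all genes against 2.89% as reported, and the A-band and M-band median was 1.69. With clusters of the most variable genes, which left 1 control cell in batch 2, 6 members were higher in each batch, beside 37.03% of all genes. Leaving out the control cell with the fewest detected genes (3805) gave 11 members higher and 8 lower in each batch (25.7% and 26.1% of all genes) and left the calls at 3 and 2 (2.19% and 2.90%). The median of all genes was 0.06 as reported, 0.21 as the ratio, 0.17 with 4 clusters and 0.15 with variable-gene clusters. The cause of these shifts was not tested. Counts under the mean of the 2 within-batch differences were not run, since the rule needs both batches. No paired analysis was possible because title numbers mark single cells and no result comes from a test.

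Each genotype is 1 sample, the 8 control CM-like cells of batch 2 carry that batch's comparison, and TPM hides depth. Shares from 27 control cells have wide intervals, 31.9 to 71.3% for Dgcr8.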

Other observations

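Restricting each member to the cells that detect it changed some signs. Trim63 differed by -0.68 over all CM-like cells and by 0.48 among its 19 control and 31 cKO detecting cells, Xirp1 by -0.11 and 0.30, and Neb by -0.15 and 1.10 with 7 and 8 detecting cells. Smyd1 kept the lower side, at -0.27 and -0.58. Myocd went from 1.99 over all cells to 1.34 among detecting cells and Lmod2 from 2.32 to 1.37. Nexn, detected in every CM-like cell, stayed at 1.33. Detecting cells are chosen by the measured level, so these are values with no comparison drawn from them.

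Myoz1 and Synpo2l are neighbours on chromosome 14 (20649102 to 20656540 and 20658945 to 20668354, GRCm38). They differed by -1.94 and 0.58.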
